A study of Mus musculus with 18 samples.

Results

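Creb3l3, the other 4 genes of its family (Creb3, Creb3l1, Creb3l2 and Creb3l4) and Fgf21 were followed in mouse AML12 cells given pemafibrate. The 6 genes were taken by name and were all found among the 35551 gene IDs of each deposited table. AML12 is an established, non-transformed hepatocyte line, and pemafibrate is a drug that selectively modulates PPARα, a nuclear receptor of fatty acid metabolism. The circadian clocks of the cultures were synchronized first. They received pemafibrate from T0 to T24 (24 h, the study's reference exposure), from T14 to T20 (6 h, set as a day exposure) or from T24 to T30 (6 h, set as a night exposure). DMSO, the solvent, was given over the same 3 windows. Each of the 6 groups held 3 libraries of poly(A)-selected RNA, numbered 1 to 3, so that the comparison was made within 9 pairs of a pemafibrate and a DMSO library of the same window and number. AML12 was derived from mice carrying a human TGFα transgene and is a single line without the other cells of the liver, a background that all groups shared.

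CREB3L3, also called CREBH, is a bZIP transcription factor of liver and small intestine that is made as a membrane protein of the endoplasmic reticulum. In fasting or under stress it moves to the Golgi, where the site proteases cut its cytoplasmic part free to enter the nucleus and act on genes of lipoproteins, fat storage and gluconeogenesis. Its gene is a target of PPARα, and the CREB3L3 protein acts together with PPARα on Fgf21, which encodes a hormone that the fasting liver secretes. The other family members are built and released in the same way but act mainly on secretory pathway genes in other tissues.

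The sequences before the start sites of Creb3l3 and Fgf21 are shown because these are the family gene that moved and its best known hormone target. They are the 250 bases before each annotated start in RefSeq, build GRCm38.p6, read 5′ to 3′ on the gene's strand. Capitals mark the nuclear receptor half-site AGGTCA and the cAMP response element core TGACG, searched on both strands. The table had windows for 5 of the 6 members and for Creb3l3 held 2 starts.

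Creb3l3, upstream start, chr10:81098873-81099122, minus strand: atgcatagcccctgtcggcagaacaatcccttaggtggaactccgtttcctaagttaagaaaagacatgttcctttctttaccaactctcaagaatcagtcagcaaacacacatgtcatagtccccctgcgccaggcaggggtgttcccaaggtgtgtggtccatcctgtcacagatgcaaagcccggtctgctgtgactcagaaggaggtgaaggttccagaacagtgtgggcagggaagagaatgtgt

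Creb3l3, downstream start, chr10:81092592-81092841, minus strand: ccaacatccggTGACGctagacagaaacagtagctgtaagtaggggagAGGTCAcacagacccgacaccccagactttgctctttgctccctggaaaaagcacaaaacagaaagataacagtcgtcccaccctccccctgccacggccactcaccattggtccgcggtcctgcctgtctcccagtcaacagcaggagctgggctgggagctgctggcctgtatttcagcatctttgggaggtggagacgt

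Fgf21, chr7:45615491-45615740, minus strand: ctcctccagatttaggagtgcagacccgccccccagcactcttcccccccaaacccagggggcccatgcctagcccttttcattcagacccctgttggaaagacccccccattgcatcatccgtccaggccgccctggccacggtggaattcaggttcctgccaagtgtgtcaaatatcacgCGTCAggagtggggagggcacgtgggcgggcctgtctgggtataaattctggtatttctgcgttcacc

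The window of the downstream Creb3l3 start held 1 half-site beginning 202 bases before the start and 1 cAMP response element core beginning 239 bases before it. The upstream window held neither. The Fgf21 window held 1 core, on the other strand, beginning 68 bases before the start. These short motifs are common: the half-site stood in 14.02% and the core in 17.8% of all 32851 windows of this length. The full PPAR response element AGGTCANAGGTCA (0.0335% of windows) and the full palindrome TGACGTCA (1.546%), which contain the short motifs, were in none of the 8 windows of the members.

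Values are given as the authors' normalized estimated reads, in which 1 unit is worth about 1 read. The totals ran from 31461977 to 33884634 per library, and 17487 to 17953 genes were above 0. Hepatocyte genes were present: Alb ran from 3124 to 7190 and Apob from 18095 to 24385 over the 18 libraries, while Apoh, another plasma protein gene of hepatocytes, stayed between 1.48 and 19.8. Of the genes of other liver cells, the macrophage gene Adgre1 was listed at 0 in every library, the endothelial gene Cdh5 stayed at or under 0.997 and the fibroblast gene Col3a1 at or under 5.05. The endothelial gene Pecam1 (7.92 to 32.4) and the leukocyte and macrophage genes Ptprc (27.6 to 58.5) and Cd68 (29.3 to 60.7) were present at low values, and the 6 genes of that list summed to 80.1 to 124 in pemafibrate libraries and 72.0 to 126 in DMSO libraries. Of the bile duct list, Krt7 (3808 to 5905), Krt19 (5793 to 12788) and Sox9 (2757 to 4982) were present, while Epcam stayed at or under 7.25. Of the fibroblast and stellate cell list, Vim (24849 to 33956) and, at low values, Des (63.6 to 120) were present. Col1a2 of that list stayed at or under 5.70 and Pdgfrb at or under 3.04. Summed over its 10 genes, the hepatocyte list ran from 171450 to 210247 in pemafibrate libraries and from 166504 to 209536 in DMSO libraries. None of the tested markers of any cell type passed the test with pemafibrate, beside 0.189% of all genes in the fit common to the 3 windows.

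The family differed widely in level. On the scale of normalized reads per kilobase of the longest coding transcript, with medians over 9 libraries each, Creb3 stood at 677 with pemafibrate and 696 with DMSO, and Creb3l2 at 499 with pemafibrate and 468 with DMSO. Creb3l3 followed at 28.5 with pemafibrate and 13.0 with DMSO. Creb3l1 (6.11 with pemafibrate and 6.62 with DMSO) and Creb3l4 (4.80 with pemafibrate and 4.76 with DMSO) came last, and Fgf21 had a median of 0 in both. The per-library ranges of Creb3l1 (2.28 to 11.9 with pemafibrate) and Creb3l4 (3.27 to 9.59 with pemafibrate) overlapped. With pemafibrate, Creb3l3 (16.9 to 60.5) lay above both. With DMSO, Creb3l3 (6.95 to 32.1) overlapped both Creb3l1 (5.42 to 11.5) and Creb3l4 (2.65 to 8.13). Creb3 has coding transcripts of 477 to 1884 bases, so its level per length depends on the transcript used: with the shortest, its median was 2674 with pemafibrate and 2747 with DMSO. The ranges of Creb3 and Creb3l2 did not overlap. Because each window was normalized by itself, these medians mix 3 scalings.

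Creb3l3 was the family gene that rose. From T0 to T24 it had 139, 88.7 and 62.5 normalized reads in pemafibrate libraries 1, 2 and 3, against 73.7, 27.8 and 18.04 in DMSO libraries 1, 2 and 3. Every pemafibrate library stood above its DMSO partner, but the groups overlapped, because DMSO library 1 exceeded pemafibrate library 3. From T14 to T20 the values were 108, 65.3 and 64.3 with pemafibrate and 47.7, 29.7 and 30.5 with DMSO. Here all pemafibrate libraries lay above all DMSO libraries, a pattern seen in 1.82% of the genes tested in this window (1.61% from T0 to T24). From T24 to T30 pemafibrate libraries had 99.9, 55.1 and 38.9 and DMSO libraries had 35.1, 26.1 and 15.9, again without overlap, as for 2.08% of genes. In normalized reads the gain over the DMSO partner ran from 22.9 to 65.2 over the 9 pairs. As a ratio, pemafibrate over DMSO, it ran from 1.88 to 3.47 from T0 to T24, from 2.11 to 2.27 from T14 to T20 and from 2.11 to 2.84 from T24 to T30.

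**Figure D1:**
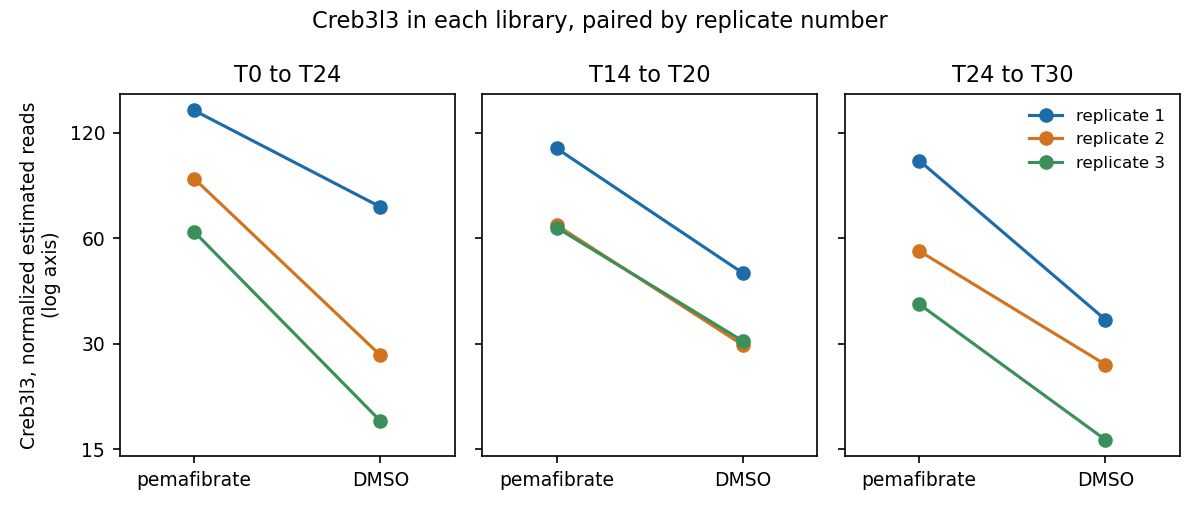
Creb3l3 in normalized estimated reads (log axis) in each library, with pemafibrate on the left and DMSO on the right of each panel and lines joining the libraries of one replicate number. All 9 lines fall towards DMSO, and replicate number 1 is highest in each of the 6 groups.

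With 1 effect fitted for all 3 windows over the 9 pairs, Creb3l3 was 2.40-fold higher with pemafibrate (95% interval 2.04 to 2.82), a log2 fold change of 1.26 ± 0.11 (SE, n = 9 pairs), with a limma adjusted p of 3.43e-05. It was higher in 9 of 9 pairs, as were 0.483% of the genes tested. Of 13258 genes, 25 (0.189%) passed the test, and Creb3l3 stood 9th by p and 12th by size of the rise. The call needed the pairing: without the replicate block the estimate was again 1.26 but its adjusted p was 0.201, and 2 genes passed. Pairs of one number in different windows may share a source. With the windows averaged within each number, the log2 differences were 1.18, 1.27 and 1.34 for numbers 1, 2 and 3 and the limma adjusted p was 0.00708. The p-values measure the spread between these libraries, since the labels do not state whether replicates are separate cultures. In such bulk RNA, fewer cells of a kind and less RNA per cell cannot be told apart.

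Within single windows Creb3l3 did not pass the test, and few genes did. From T0 to T24 its log2 fold change was 1.43 ± 0.22 (SE, n = 3 pairs; limma adjusted p = 0.280, with 0.0525% of genes called). From T14 to T20 it was 1.11 ± 0.17 (limma adjusted p = 0.199, 0.0379% called), and from T24 to T30 it was 1.25 ± 0.21 (limma adjusted p = 0.376, 0.0378% called). By p it stood 14th, 19th and 18th among the 13325, 13210 and 13231 genes tested in these windows. A further fit shared 1 estimate of the spread over all 18 libraries. In it the T0 to T24 value of 1.43 passed with a limma adjusted p of 0.0118. The T14 to T20 and T24 to T30 values, 1.11 and 1.25, did not pass there (limma adjusted p = 0.105 and 0.0519).

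The size of the Creb3l3 rise was not shown to differ between windows. The day window minus the night window gave a log2 difference of -0.15 (95% interval -0.74 to 0.44, limma adjusted p = 0.892). The 24 h window minus the day window gave 0.32 (-0.27 to 0.91, limma adjusted p = 0.994), and the 24 h window minus the night window gave 0.17 (-0.42 to 0.76, limma adjusted p = 0.908). No gene passed in these 3 limma tests (0% each), while 1225, 654 and 1057 of 13258 genes had an unadjusted p under 0.05. The intervals are wide on the scale of the effect itself, so the 3 windows are not shown to act alike. The sizes of the differences depended on single replicates, and the sign did so only for 24 h minus night. Without replicate 1, 2 and 3, day minus night was -0.061, -0.25 and -0.13, and 24 h minus day was 0.61, 0.21 and 0.13. The 24 h minus night difference was 0.55, -0.036 and 0.0070.

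The abundant members showed no change past the test. Creb3, whose product is also called LUMAN, had 1243.5, 1225 and 1293 normalized reads with pemafibrate from T0 to T24, against 1234, 1204 and 1375 with DMSO. From T14 to T20 it had 1249, 1239 and 1366 with pemafibrate and 1335, 1191 and 1689 with DMSO, and from T24 to T30 it had 1380.4, 1275 and 1332 with pemafibrate and 1311, 1188 and 1319.5 with DMSO. The groups overlapped in every window. The common log2 fold change was -0.02 ± 0.04 (SE, n = 9 pairs), with a 95% interval of -0.11 to 0.06 and a limma adjusted p of 0.954.

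Creb3l2, known as BBF2H7 and as a factor for secretory genes in cartilage, behaved likewise. It had 4039, 3646 and 3024 normalized reads with pemafibrate from T0 to T24, against 4253, 3481 and 3290.5 with DMSO. From T14 to T20 the values were 3895, 3531 and 2993 with pemafibrate and 3977, 3314 and 2842 with DMSO, and from T24 to T30 they were 3896, 3395 and 2971 with pemafibrate and 3704, 3249 and 2919.7 with DMSO. Library 1 was the highest and library 3 the lowest in all 6 groups, and the treatments overlapped. The common log2 fold change was 0.02 ± 0.03 (SE, n = 9 pairs; 95% interval -0.04 to 0.07, limma adjusted p = 0.942).

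Creb3l1, known as OASIS and as a factor for collagen genes in bone, was low and variable. From T0 to T24 it had 5.92, 25.8 and 17.3 normalized reads with pemafibrate, against 17.8, 29.9 and 16.3 with DMSO. The T14 to T20 values were 15.9, 30.9 and 12.1 with pemafibrate and 15.9, 25.7 and 17.2 with DMSO, and the T24 to T30 values were 9.95, 29.8 and 12.01 with pemafibrate and 14.1, 27.8 and 17.2 with DMSO. Library 2 was the highest in all 6 groups. The common log2 fold change was -0.29 ± 0.18 (SE, n = 9 pairs), with an interval of -0.68 to 0.10 that is far wider than for Creb3 and Creb3l2, and a limma adjusted p of 0.857. It ran from -0.46 to -0.12 as each number was left out.

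Creb3l4, a family member best known from prostate and testis, fell below the mean of 10 that the test required, at 7.98 over all libraries. It had 9.23, 14.9 and 5.59 normalized reads with pemafibrate from T0 to T24 and 4.12, 5.16 and 7.39 with DMSO. From T14 to T20 it had 9.74, 11.6 and 7.46 with pemafibrate and 12.6, 9.22 and 5.65 with DMSO. From T24 to T30 it had 5.08, 7.10 and 6.33 with pemafibrate and 4.12, 10.1 and 8.23 with DMSO. The groups overlapped in all windows, and pemafibrate was higher in 5 of 9 pairs. The mean within-pair log2 difference was 0.20 ± 0.65 (SD, n = 9 pairs; exact two-sided sign-flip permutation test, p = 0.414), and it was 0.15, 0.095 and 0.35 without replicate 1, 2 and 3.

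The change of Creb3l3 exceeded that of each relative on average. The within-pair log2 difference of Creb3l3 exceeded that of Creb3 by 1.29, that of Creb3l1 by 1.555 and that of Creb3l2 by 1.25 on average, in 9 of 9 pairs each (exact sign-flip permutation test, two-sided, p = 0.00391, the smallest that 9 pairs can give). It exceeded that of Creb3l4 by 1.07, in 8 of 9 pairs (exact sign-flip permutation test, p = 0.00781). These were 4 comparisons, given without adjustment, among members chosen with earlier results of these data known. The test takes the 9 pairs as independent. If the windows of one number share a source, only 3 independent values remain, and the smallest exact permutation p is then 0.25. With 1 number left out, the first 3 had an exact permutation p of 0.0312, the smallest for 6 pairs. The comparison with Creb3l4 then had an exact permutation p of 0.0625 without replicate 2 or without replicate 3, with differences of 1.17 and 0.87.

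**Figure D2:**
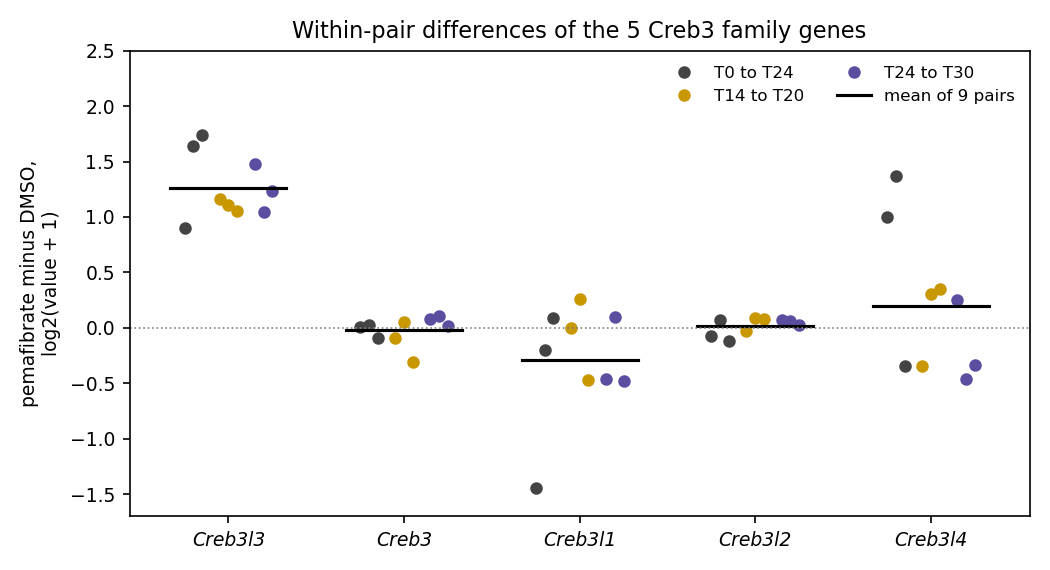
Within-pair difference of log2(value + 1), pemafibrate minus DMSO, for the 5 family genes, with 1 point per pair coloured by window and a line at the mean of 9 pairs. The 9 points of Creb3l3 lie between 0.90 and 1.74, those of Creb3 and Creb3l2 lie close to 0, and those of the low genes Creb3l1 and Creb3l4 scatter on both sides of 0.

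Fgf21 was near absent. It was above 0 in 5 of 18 libraries, and its values added up to 7.02 over all of them. With pemafibrate it was listed at 0, 0 and 1.02 from T0 to T24, at 0.992, 0 and 0 from T14 to T20, and at 0, 1.99 and 0 from T24 to T30. With DMSO it was listed at 0, 1.00 and 0 from T0 to T24, at 0 in all 3 libraries from T14 to T20, and at 0, 0 and 2.02 from T24 to T30. Every value lies under 3 reads, the limit that a count of 0 allows, so no fold change is given, and a response of Fgf21 was not detectable at this depth.

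Genes for receiving FGF21 were present. Of the 5 genes for the co-receptor and receptors, 4 were tested and 0 passed in the common fit, beside 0.189% of all genes. The median log2 fold change of the 4 was 0.05, against -0.0025 over all genes. Klb, the β-Klotho co-receptor, ran from 453 to 1209 normalized reads, with a common log2 fold change of 0.07 ± 0.04 (SE; limma adjusted p = 0.840). Fgfr2 had -0.04 ± 0.02 (SE; limma adjusted p = 0.629). Fgfr1, the main partner of β-Klotho in fat tissue, was not tested, with 0.992 to 15.7 normalized reads.

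The list for membrane release of such factors held the proteases that cut CREB3L3, and also genes such as Sel1l and Atf6 that do not. All 6 listed genes were expressed and tested, and 0 passed, beside 0.189% of all genes. Their median common log2 fold change was 0.03. Mbtps1 and Mbtps2, the Golgi proteases that cut CREB3L3, ran from 7195 to 8486 and from 1333 to 1878 normalized reads. Sel1l, of the complex that degrades proteins of the endoplasmic reticulum, had a log2 fold change of 0.04 ± 0.02 (SE; limma adjusted p = 0.850), and Atf6, a stress factor cut by the same proteases, had 0.04 ± 0.03 (SE; limma adjusted p = 0.875).

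Most genes that CREB3L3 is known to act on in liver were too low to be tested. Of 14 listed, 5 were tested and 0 passed, with a median common log2 fold change of 0.02 (-0.0025 over all genes). With 0.189% of all genes passing, a count of 0 among 5 does not set these genes apart. Crp, an acute phase gene, had the smallest p: its log2 fold change was 0.09 ± 0.02 (SE; limma adjusted p = 0.410). Apcs, the gene of serum amyloid P, had -0.07 ± 0.06 (SE; limma adjusted p = 0.913), and Insig2, a regulator of sterol synthesis, had 0.04 ± 0.04 (SE; limma adjusted p = 0.927). The other 9 lay below the required mean, none above 15.8 normalized reads in any library. Among them the apolipoprotein genes Apoa4, Apoa5 and Apoc3, the gluconeogenic gene Pck1 and the hormone gene Hamp had a median of 0, so a response of these classical targets was not detectable here. Of the 6 target genes listed for CREB3, CREB3L1 and CREB3L2, all tested, 0 passed, beside the same 0.189% of all genes. Their median was 0.02. Sec23a, a coat protein gene of secretory vesicles, had 0.06 ± 0.03 (SE; limma adjusted p = 0.819) and Col1a1 had 0.22 ± 0.22 (SE; limma adjusted p = 0.919), which was 0.081, 0.062 and 0.52 without replicate 1, 2 and 3.

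**Figure D3:**
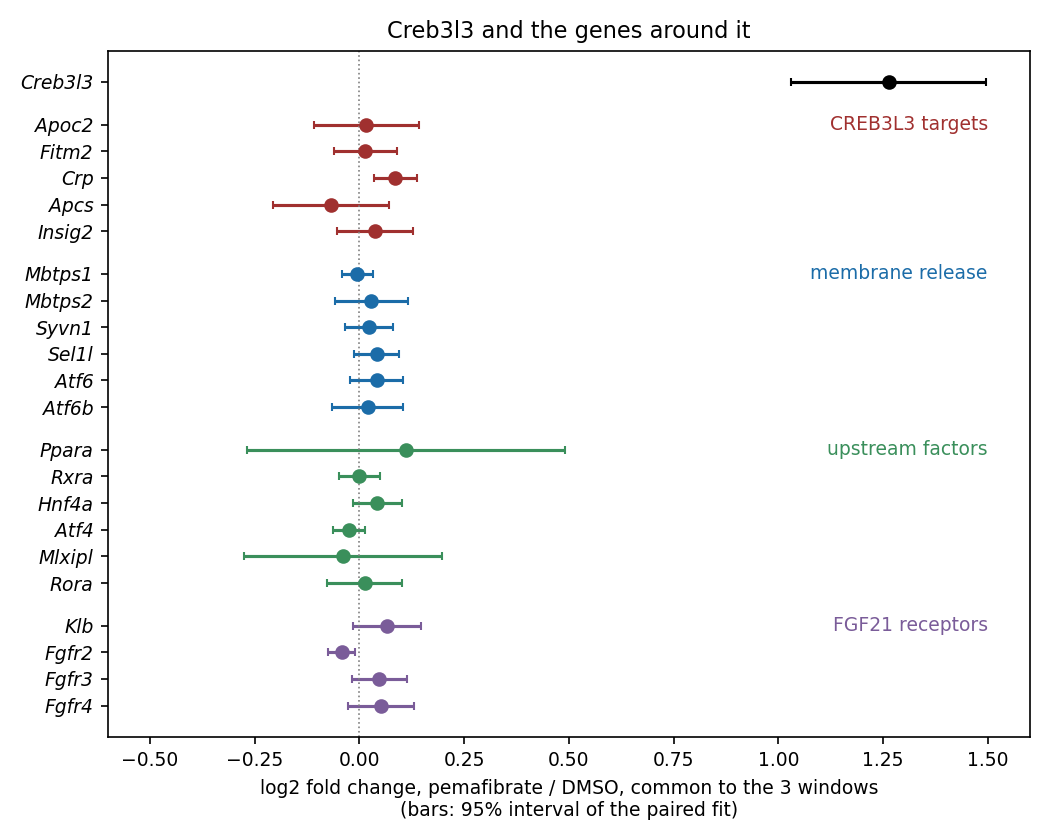
Common log2 fold change, pemafibrate over DMSO, of Creb3l3 and of the tested genes of 4 lists, with bars for the 95% interval of the paired fit over 9 pairs. Creb3l3 stands at 1.26, while the listed genes lie close to 0, with wider intervals for Ppara and Mlxipl.

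Of the 6 transcription factors listed as acting on Fgf21 or Creb3l3, all were tested and 0 passed, beside 0.189% of all genes. A count of 0 among so few does not set them apart. Their median log2 fold change was 0.0063. Ppara itself, the receptor of the drug, ran from 90.0 to 293 normalized reads and had 0.11 ± 0.18 (SE; limma adjusted p = 0.953), which was -0.07 without replicate 1. By window its log2 fold changes were -0.50 ± 0.22 from T0 to T24, 0.50 ± 0.20 from T14 to T20 and 0.33 ± 0.16 from T24 to T30 (SE, n = 3 pairs each; limma adjusted p = 0.946, 0.575 and 0.686). The 24 h window minus the day window gave -1.004 for Ppara, which did not pass either (95% interval -1.75 to -0.26, limma adjusted p = 0.985). Atf4, the stress factor that can switch on Fgf21, had -0.03 ± 0.02 (SE; limma adjusted p = 0.875), and Hnf4a, a hepatocyte factor, had 0.04 ± 0.03 (SE; limma adjusted p = 0.857).

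Part of the other PPARα target genes also passed the test as higher. Of 19 listed, 16 were tested, and 8 passed as higher and 0 as lower in the common fit (0.189% of all genes tested passed). Of the 16, 15 had a positive log2 fold change and 1 a negative one, beside 47.6% positive over all genes. The median of the 16 was 0.16, against -0.0025 over all genes. Pdk4, a kinase that turns off pyruvate oxidation, had 1.17 ± 0.11 (SE; limma adjusted p = 6.74e-05). The acyl-CoA thioesterase genes Acot2 and Acot1, whose reads are hard to divide between close paralogs, had 0.83 ± 0.05 and 0.73 ± 0.04 (SE; limma adjusted p = 1.98e-06 and 2.72e-07). Angptl4, an inhibitor of lipoprotein lipase, had 0.57 ± 0.03, and the lipid droplet gene Plin2 had 0.37 ± 0.02. Cpt1a and Slc25a20, which carry fatty acids into mitochondria, had 0.31 ± 0.02 and 0.20 ± 0.03, and the limma adjusted p of these 4 genes ran from 1.44e-06 to 0.00543. Here too the pairing mattered: without the replicate block 2 genes of the list passed, Pdk4 and Angptl4. Slc25a20 also lost its call without replicate 1, 2 or 3 (limma adjusted p = 0.265, 0.152 and 0.0944) and with windows averaged (0.178). Within windows 6, 3 and 3 genes of the list passed as higher, in the order of the 24 h, the day and the night exposure. There 0.0525%, 0.0379% and 0.0378% of all genes passed. The list had been seen to respond in these data before, so its direction is no independent evidence.

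**Figure D4:**
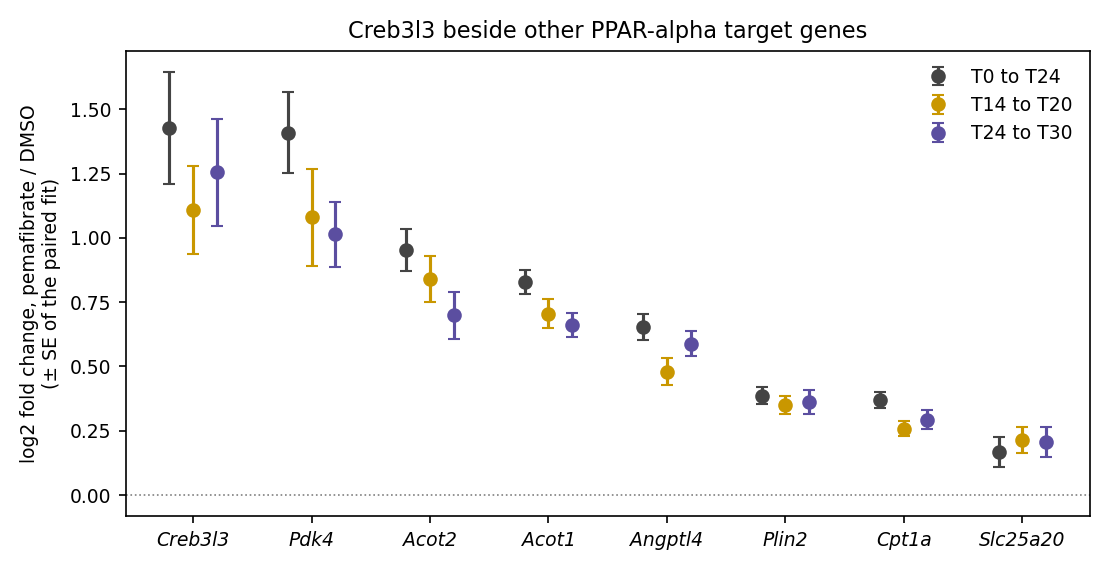
Log2 fold change, pemafibrate over DMSO, of Creb3l3 and 7 other PPARα target genes in each window, with bars for the SE of the paired fit on 3 pairs. Creb3l3 lies between 1.11 and 1.43, beside Pdk4 at 1.01 to 1.41 and above the other genes.

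Creb3l3 and Pdk4 had the greatest log2 fold changes among these named targets, though not among all the PPARα targets tested. Creb3l3 exceeded Pdk4 by 0.10 ± 0.47 on average (SD, n = 9 pairs), in 7 of 9 pairs (exact sign-flip permutation test, p = 0.559). It exceeded the other 6 in 9 of 9 pairs each, from 0.43 for Acot2 to 1.07 for Slc25a20 (exact sign-flip permutation test, two-sided, p = 0.00391 each, the smallest possible for 9 pairs taken as independent). These 7 comparisons were chosen after the values had been seen and are not adjusted.

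The genes most like Creb3l3 were sought among all 13257 other genes with a mean of at least 10. By Pearson correlation over the 18 libraries, with each window's mean taken out, Acot2 came first (r = 0.97), followed among named genes by Cpt1a (0.89), Acot1 (0.87) and Angptl4 (0.87). The median over all genes was -0.0048. These libraries share treatment, replicate number and scaling, so the coefficients are descriptive. By the distance between the 9 within-pair differences, Pdk4 was nearest (root mean square 0.45), then Asb4 (0.48), Acot2 (0.49), Acot1 (0.59) and Aldh1a1 (0.71), against a median of 1.30. Asb4, a substrate receptor of ubiquitin ligases, averaged 27.1 normalized reads and had a log2 fold change of 1.22 ± 0.17 (SE; limma adjusted p = 0.00556). Its call ended without replicate 1 (limma adjusted p = 0.205) and without replicate 2 (limma adjusted p = 0.285). Aldh1a1, which makes retinoic acid, had 0.60 ± 0.04 (SE; limma adjusted p = 1.98e-06).

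Creb3l3 also differed by replicate number, in both treatments. Over the 3 windows, number 1 averaged 116 ± 20.5 normalized reads with pemafibrate and 52.2 ± 19.7 with DMSO (SD, n = 3 libraries each). Number 2 averaged 69.7 ± 17.2 with pemafibrate and 27.9 ± 1.80 with DMSO, and number 3 averaged 55.2 ± 14.2 with pemafibrate and 21.5 ± 7.87 with DMSO. The hepatocyte gene Apoe, an apolipoprotein gene, stood in the same order, at 871, 464 and 192 with pemafibrate and at 864, 420 and 196 with DMSO for numbers 1, 2 and 3. Alb did too, at 6583, 3780 and 3290 with pemafibrate and 6731, 3789 and 3237 with DMSO. The summed hepatocyte list did not: it stood at 200217, 177359 and 198326 with pemafibrate and at 201933, 178571 and 199055 with DMSO. That sum is made up mostly of Krt8, Krt18 and Trf, with medians of 64650, 51359 and 44814 normalized reads over the libraries. The order of the other listed hepatocyte genes by number is not shown. What part the state of the cells has in the Creb3l3 level was not tested, and these means cross tables that were normalized separately. The rise with pemafibrate was present at each number, as the averaged differences of 1.18, 1.27 and 1.34 show.

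**Figure D5:**
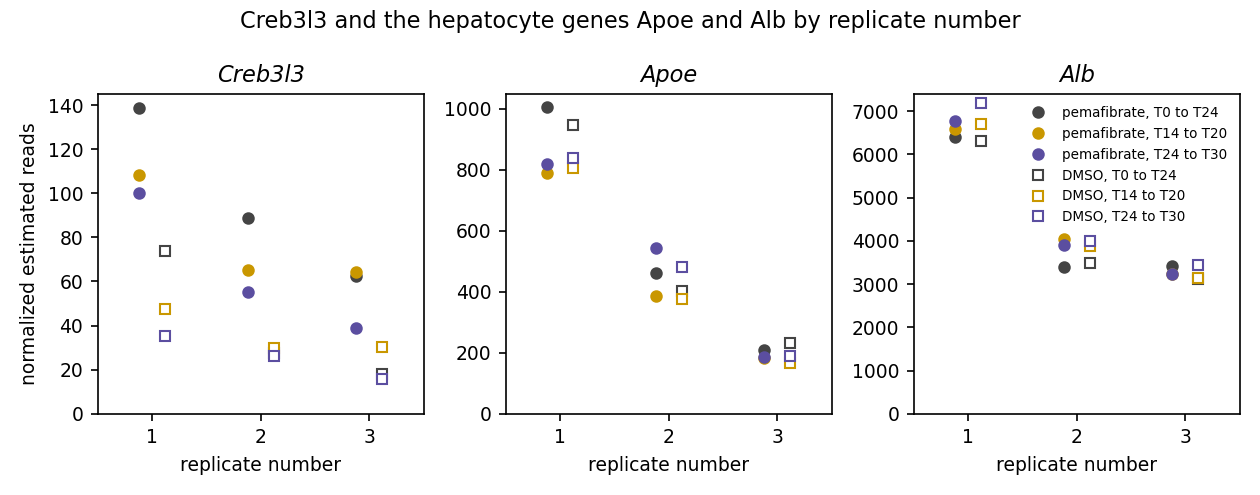
Creb3l3, Apoe and Alb in normalized estimated reads by replicate number, with filled circles for pemafibrate, open squares for DMSO and colours for windows. Replicate number 1 is highest for all 3 genes, and pemafibrate separates from DMSO within each number for Creb3l3 alone among these 3.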

How the data were processed

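Poly(A) RNA of AML12 cells was sequenced in dUTP-stranded libraries, per the labels' protocols. The authors deposited 1 table per window with values for 35551 mouse gene IDs in 6 libraries, and these are signal values, per the file headers: estimated reads per gene, normalized inside each table. Column names carry the ending of salmon output. For the counter version, genome build and annotation, the sources used here give nothing. Between 56.0% and 74.0% of values under 9 were whole multiples of 1 read within a tolerance of 0.05, so reads were not recovered and no count test was run. Depth before normalization is unknown. Symbols matched 35181 IDs.

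A pseudocount of 1 was added before taking log2, so changes of weakly expressed genes are understated. The test was that of limma 3.58.1 (R 4.3.3, variance trend, Benjamini-Hochberg adjustment over all genes tested, threshold 0.05) on genes whose mean reached 10, and replicate numbers entered as blocks. The code was tested on simulated data. The pairing was taken from the numbers in the titles. Across genes, libraries of the same number deviated together from their group means (r 0.31 to 0.64, 9 pairs between treatments). Those of different numbers had r -0.44 to -0.11. Taking out each group's own mean pushes these values below 0 once same-number values are positive, so they add no support. Members and lists were chosen with earlier results of these data known. Named were all members, up to 3 genes of the smallest p per list, those past the threshold, and the 5 most like Creb3l3 by each measure. Some genes this covers are not reported here by name. Other settings were another pseudocount (0.5 or 5), no filter, rescaling by trimmed means, no block, a shared fit, averaged windows and each replicate left out.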

Additional observations from a re-analysis of the deposited data

How the results depend on the processing

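Creb3l3 kept its direction in all 9 other settings of the common fit (log2 1.16 to 1.30, limma adjusted p 2.40e-05 to 0.201) and passed in 8; without the replicate block its 1.26 did not pass. In single windows only the shared fit changed its call (1.43 from T0 to T24). Leaving out 1 replicate at a time gave 0.87 to 1.17 for Creb3l3 minus Creb3l4, and -0.036 to 0.55 for Creb3l3 from T0 to T24 minus T24 to T30.

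Signs turned within these leave-one-out ranges: Creb3 from T0 to T24 -0.039 to 0.018, and in common -0.065 to 0.029; Creb3l2 in common -0.0089 to 0.033, and T14 to T20 minus T24 to T30 -0.037 to 0.039; Creb3l1 from T14 to T20 -0.24 to 0.13, T0 to T24 minus T14 to T20 -0.95 to 0.049, and T0 to T24 minus T24 to T30 -0.64 to 0.13; Ppara in common -0.065 to 0.27. None of these results passed a test. Acot1, Acot2, Plin2, Cpt1a, Slc25a20, Asb4 and Aldh1a1 lost their calls without the block (limma adjusted p 0.0595 to 1.00), and Asb4 also with windows averaged (0.185).

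Counts of genes called moved more. With no replicate block, and with no filter, 0 genes passed in each window (7, 5 and 5 otherwise). The shared fit called 14, 9 and 8, and rescaling 2 from T14 to T20. Leaving out replicates gave 4 to 12 from T0 to T24, 4 to 7 from T14 to T20, 1 to 7 from T24 to T30, 12 to 17 in the common fit and 0 to 1 in each difference between windows. The common fit called 2 without the block and 12 with windows averaged. The cause was not tested. Fgf21 was too low for depth to show a response, and 9 of 14 CREB3L3 target genes lay below the filter on low values.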
